A study of Mus musculus with 236 samples.

Results

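The 7 genes followed here belong to the pluripotency network and were measured in differentiating mouse embryonic stem cells: Pou5f1, Sox2, Sall4, L1td1, Tdgf1, Lin28a and Utf1. They were chosen by name, with earlier results of these data known, and all 7 are among the 39300 genes of the deposited expression table. The cells came from 1 female line, derived from blastocysts of a C57BL/6J mother and a CAST/EiJ father, so every cell of both groups carries 1 C57BL/6J and 1 CAST/EiJ genome. Before differentiation the line was grown in serum medium with leukemia inhibitory factor (LIF) and 2i, the Gsk3 inhibitor CT99021 and the MEK inhibitor PD0325901. Differentiation was started by taking LIF and 2i away, and both groups were taken after that. Of the 406 cells in the expression table, 50.5% were taken at day 2.5 and 49.5% at day 0.5, in libraries of 1 or 2 cells. HiRES, which reads chromatin contacts and RNA from the same single cell, gave the values, in unique molecular identifiers (UMIs), each of which stands for 1 captured RNA molecule. A cell held a median of 15796 gene UMIs at day 2.5, with a range of 529 to 29275, and 13670 at day 0.5, with a range of 501 to 23213.

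No label names a separate culture, so each day is 1 sample, no p-value was made, and the intervals in the text cover counting error only. No cell name occurs in more than 1 library (0 of 471). The cell metadata split the cells into 3 batches without saying what a batch stands for. Batch 3 held 83 day 2.5 cells and batch 2 the other 59.5% of that day, while batch 1 held 80 day 0.5 cells and batch 2 the other 60.2%. Only batch 2 can therefore separate the day from the batch.

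Pou5f1 (also called Oct4) and Sox2 encode transcription factors that bind DNA as partners and activate many genes of the pluripotent state. Sall4, a zinc finger factor, works with them, and Utf1 encodes a chromatin-bound factor of undifferentiated cells whose gene is itself a target of Pou5f1 and Sox2. Lin28a encodes an RNA-binding protein that blocks the maturation of let-7 microRNAs, L1td1 an RNA-binding protein derived from a LINE-1 element, and Tdgf1 the surface protein CRIPTO, a co-receptor for Nodal. After LIF and 2i are withdrawn, mouse embryonic stem cells leave the naive state and pass through a formative, epiblast-like state in which Pou5f1 is known to stay on.

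Of the 7 genes, 4 were lower at day 2.5 with the batches pooled: Pou5f1, Sox2, L1td1 and Utf1. The working name of the set, core pluripotency genes kept through exit, thus does not mean an unchanged level for these 4. All 4 were still detected at day 2.5. Within batch 2 the Pou5f1 ratio was 0.631 with an interval of 0.371 to 1.06 that includes 1, and Utf1 had too few UMIs for a call. Sall4, Tdgf1 and Lin28a stayed within 1.5-fold of day 0.5. Lower here means a ratio of CPM, the UMIs of a gene scaled to a common total per day, of at most 1/1.5 among genes with at least 20 UMIs over both days. Of the 13777 genes tested, 25.6% were lower by this rule, 21.4% were higher and 53% were neither.

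Promoter sequences are shown for 4 of the genes, 3 that were lower and 1 that was not, as the 250 bases before the RefSeq transcription start (GRCm38.p6), 5′ to 3′ on the gene's strand. The RefSeq promoter table had an entry for 6 of the 7 genes. Capitals mark matches, on either strand, to the octamer core ATGCAAA bound by POU factors, the SOX core CATTGT or the GC box GGGCGG. The windows are chr17:35505782-35506031 (plus strand) for Pou5f1, chr3:34649745-34649994 (plus) for Sox2, chr4:98726504-98726753 (plus) for L1td1 and chr9:110946159-110946408 (minus) for Tdgf1.
Pou5f1: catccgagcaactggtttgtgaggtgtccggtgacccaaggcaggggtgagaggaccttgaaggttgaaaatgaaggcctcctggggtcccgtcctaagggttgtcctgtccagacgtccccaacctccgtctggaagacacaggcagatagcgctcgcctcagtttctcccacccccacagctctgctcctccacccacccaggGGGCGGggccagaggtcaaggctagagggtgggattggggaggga
Sox2: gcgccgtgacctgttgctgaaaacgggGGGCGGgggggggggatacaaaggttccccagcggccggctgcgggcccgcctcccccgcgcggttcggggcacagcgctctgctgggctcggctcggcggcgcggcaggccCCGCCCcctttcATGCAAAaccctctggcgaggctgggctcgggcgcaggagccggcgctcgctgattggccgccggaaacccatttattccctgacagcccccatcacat
L1td1: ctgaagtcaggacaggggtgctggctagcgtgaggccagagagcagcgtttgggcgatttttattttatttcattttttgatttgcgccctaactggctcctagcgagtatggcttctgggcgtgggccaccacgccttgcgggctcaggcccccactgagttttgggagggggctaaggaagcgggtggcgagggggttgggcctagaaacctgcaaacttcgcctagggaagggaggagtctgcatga
Tdgf1: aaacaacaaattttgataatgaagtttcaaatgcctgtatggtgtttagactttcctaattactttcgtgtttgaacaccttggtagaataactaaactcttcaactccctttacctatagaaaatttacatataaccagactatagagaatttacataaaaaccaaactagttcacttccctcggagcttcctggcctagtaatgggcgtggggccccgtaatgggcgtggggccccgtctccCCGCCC
The Sox2 window held the octamer core, starting 99 bases before the start, and 2 GC boxes. Pou5f1 held a GC box 45 bases before its start, Tdgf1 held 1 starting 6 bases before it, and L1td1 held none of these letters. The table lists another Pou5f1 start inside the gene, whose window held a SOX core. The listed Lin28a start also lies inside the annotated gene, and its window held a SOX core 96 bases before it. Of 32851 RefSeq promoter windows of the same length, 4.12% held the octamer core, 10.7% the SOX core and 32.7% the GC box. The nuclear receptor site AAGGTCA was searched too and is in 4.08% of windows and in none of the 6 genes' windows. Utf1 held 4 GC boxes, of which 2 overlap. A match of letters is no evidence of binding, and no match says nothing of the factor.

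Pou5f1 (chr17:35506032-35510777) was detected at 13.5 CPM in day 2.5 cells (43 UMIs) and at 31.3 CPM in day 0.5 cells (83 UMIs). The ratio was 0.432 (95% interval 0.292 to 0.631), and 7.59% of tested genes had a lower log2 change. By batch, its level was 15.8 and 10.6 CPM in batches 2 and 3 at day 2.5, against 38.7 and 25.0 CPM in batches 1 and 2 at day 0.5. Both day 2.5 batches were below both day 0.5 batches. Within batch 2 the difference was smaller, with a ratio of 0.631 and an interval that reaches 1.06.

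Sox2 (chr3:34649995-34652461) was detected at 7.06 CPM at day 2.5 and 32.8 CPM at day 0.5, a ratio of 0.216 (0.129 to 0.346), and 2.63% of tested genes had a lower log2 change. By batch it stood at 7.61 and 6.38 CPM at day 2.5, against 33.7 and 31.9 CPM at day 0.5, so the batches of a day were close and the days did not overlap. The gene lies inside Sox2ot, a long noncoding transcript (chr3:34560381-34677993), and the 2 share reads in this table. Every cell with a Sox2 value (33.7% of 406) had a Sox2ot value at least as high, and the smallest Sox2 value was 0.5. Counted whole, Sox2 stood at 14.1 CPM at day 2.5 and 65.5 CPM at day 0.5, with the same ratio. Without the shared UMIs, Sox2ot stood at 32.01 CPM at day 2.5 and 65.7 CPM at day 0.5, a ratio of 0.487 (0.378 to 0.626). Unspliced Sox2ot RNA that crosses Sox2 and Sox2 RNA itself cannot be told apart in these values.

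Utf1 (chr7:139943856-139945112) had only 32 UMIs in all, 11 at day 2.5 and 21 at day 0.5. Its levels of 3.45 and 7.91 CPM gave a ratio of 0.437 with an interval of 0.190 to 0.947. By batch it stood at 2.25 and 4.96 CPM at day 2.5, against 8.23 and 7.64 CPM at day 0.5. Few molecules stand behind each of these values, and within batch 2 the gene had under 20 UMIs. In that batch alone, Pou5f1, Sox2 and L1td1 were lower, as were 25.1% of tested genes.

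L1td1 (chr4:98726754-98738486) is the best counted of the lower genes, with 516 UMIs at day 2.5 and 761 at day 0.5. It stood at 161.96 CPM at day 2.5 and 287 CPM at day 0.5, a ratio of 0.565 (0.504 to 0.633). By batch its level was 169.6 and 152.4 CPM at day 2.5, against 291 and 283 CPM at day 0.5. The gap between the days exceeded every gap between batches of a day, and within batch 2 the ratio was 0.599 (0.515 to 0.697).

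Tdgf1 (chr9:110939608-110946158) stood at 175.5 CPM at day 2.5 and 218.2 CPM at day 0.5, a ratio of 0.804 (0.715 to 0.905) that did not reach the size needed for a call. Batches gave 178.3 and 171.8 CPM at day 2.5, against 216.4 and 219.7 CPM at day 0.5. The counting interval excludes 1, and the 2 batches of each day lay close together.

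Sall4 (chr2:168748332-168767201) stood at 126.8 CPM at day 2.5 and 133.5 CPM at day 0.5, a ratio of 0.95002 (0.822 to 1.10). Its batches overlapped between the days, with 138.3 and 112.3 CPM at day 2.5, against 123.4 and 141.97 CPM at day 0.5. Lin28a (chr4:134003330-134019196) gave the ratio nearest to 1, at 72.5 CPM at day 2.5 and 71.7 CPM at day 0.5 (ratio 1.01, 0.831 to 1.23). Its batches stood at 72.96 and 71.93 CPM at day 2.5, against 79.4 and 65.3 CPM at day 0.5. For both genes the intervals exclude a change of 1.5-fold in either direction. Sall4 overlaps the noncoding gene Gm14261, and how reads of the overlap were counted is not stated.

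**Figure D1:**
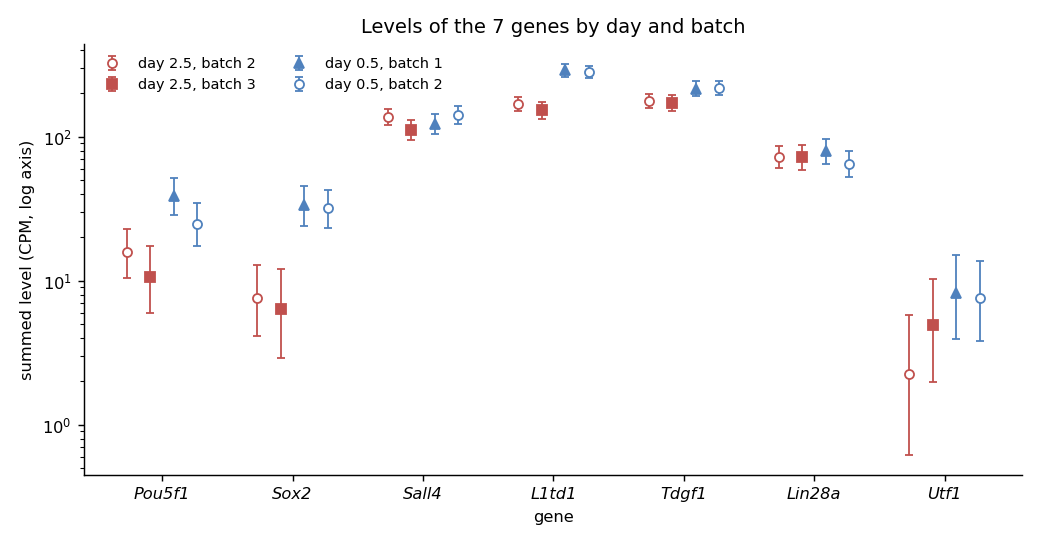
Summed level (CPM, log axis) of each of the 7 genes in the 2 batches of day 2.5 (red, left) and of day 0.5 (blue, right), with 95% Poisson intervals that cover counting error only. Sox2 and L1td1 separate by day in every batch, while the batches of Sall4 and Lin28a overlap between the days.

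On the log2 scale, with 5 CPM added to each level, the median change of the 7 genes was -0.61, against -0.065 over all genes tested. That median is the value of Utf1, on 11 and 21 UMIs, where the added 5 CPM shrinks the change. With 1 CPM added, the median of the 7 genes was -0.82. The range ran from -1.65 for Sox2 to 0.01 for Lin28a. Sall4 lay near the middle of all genes, with 49.5% below it, and Lin28a had 55.9% of genes below it.

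**Figure D2:**
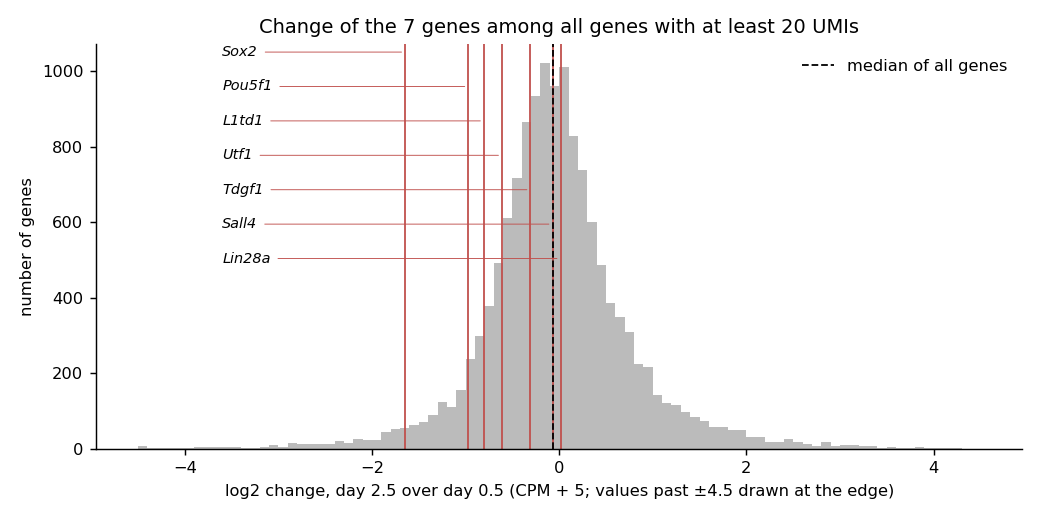
Number of genes (vertical axis) by log2 change of day 2.5 over day 0.5 (horizontal axis) for the 13777 genes with at least 20 UMIs, with the 7 genes as red lines and the median of all genes dashed. The 7 genes spread over the lower side and the middle, from -1.65 for Sox2 to 0.01 for Lin28a.

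The share of cells with at least 1 UMI depends on depth, so each cell was also thinned to 5000 UMIs, which left out 7 shallower cells of each day. Thinned shares are the mean number of cells over 20 draws, rounded to whole cells, with Clopper-Pearson intervals. L1td1 was seen in 54.5% of thinned day 2.5 cells (47.3 to 61.6) and 73.7% of thinned day 0.5 cells (66.9 to 79.8), and in 85.9% and 93.5% of cells unthinned. Pou5f1 was seen in 6.06% of thinned day 2.5 cells (3.17 to 10.3) and 15.5% of thinned day 0.5 cells (10.7 to 21.3), and in 19.02% and 31.3% unthinned. Sox2 was seen in 15.6% of day 2.5 cells (10.9 to 21.3) and 52.2% of day 0.5 cells (45.1 to 59.3) unthinned. After thinning, which rounds its fractional values up or down at random, its shares were 4.04% and 14.9%.

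These 3 genes are those whose thinned intervals lay apart, all lower at day 2.5. Of all tested genes, 7.22% were lower and 7.82% higher by the same rule. Only Sox2 stayed apart in the unthinned cells, and only L1td1 within batch 2. Tdgf1 was seen in 48.99% of thinned day 2.5 cells and 62.9% of thinned day 0.5 cells, with intervals that touch (41.8 to 56.2 and 55.7 to 69.7). Sall4 was seen in 42.9% and 44.8%, Lin28a in 25.3% and 27.8%, and Utf1 in 2.02% and 3.61%, day 2.5 first in each pair, all with overlapping intervals.

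Genes of other lineages were measured the same way. They had few UMIs in all cells together, so they do not show how much free RNA of the 7 genes a cell could hold. Sox17, Foxa2, Cdx2, Mixl1, Col1a1 and Col3a1 were each seen in 0 to 3 cells of a day, and a count of 0 cells, taken as at most 3 counts, allows a share of cells with a UMI of up to 1.46% at day 2.5 and 1.49% at day 0.5. Unthinned, 4.88% of day 2.5 cells and 9.95% of day 0.5 cells held a Utf1 UMI. Gata4, an endoderm factor, was seen in 24 day 2.5 cells (11.7%) and 30 day 0.5 cells (14.9%), and Pax6, a neural factor, in 6 and 13 cells. After thinning, 5.05% of day 2.5 cells and 7.22% of day 0.5 cells held a Gata4 UMI, and the thinned day 2.5 intervals of Pou5f1 and Sox2 include the first of these shares. Unspliced RNA adds to the counts of long genes, so this overlap does not set the levels of these genes equal.

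The cell-to-cell spread of the 7 genes was set against that of other genes. The Fano factor, variance over mean of the thinned counts, is 1 for pure counting, and each gene was set beside the 200 genes nearest in mean. L1td1 had a Fano factor of 1.12 on both days, while its nearest genes had medians of 1.30 at day 2.5 and 1.42 at day 0.5. Only 8% and 2.5% of those genes were less variable than L1td1. Its most loaded cell held 9.5 UMIs at day 2.5 and 17 at day 0.5.

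Tdgf1 and Lin28a were more variable at day 2.5, with Fano factors of 1.48 and 1.41, against 1.26 and 1.13 at day 0.5. The ranges over 20 thinning draws overlapped between the days for both, at 1.24 to 1.82 and 1.06 to 1.57 for Tdgf1 and 1.14 to 1.73 and 0.956 to 1.43 for Lin28a. At day 2.5 they were above 78.5% and 81.5% of genes of like mean, and at day 0.5 above 28% and 25.5%. Another view of a Fano factor above 1 is the share of cells that pure counting predicts from the thinned mean. For Tdgf1 this was 57.2% at day 2.5, where 48.99% held a UMI, and 66.7% at day 0.5, where 62.9% did. Predicted and seen shares at day 2.5 were 29.4% and 25.3% for Lin28a and 46.6% and 42.9% for Sall4. For L1td1 at day 2.5 the corresponding values were 56.6% and 54.5%.

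Without thinning, the variance beyond counting error over the squared mean was 0.149 at day 2.5 and 0.148 at day 0.5 for L1td1. It was 0.525 and 0.185 for Tdgf1, 0.992 and 0.779 for Lin28a, and 0.369 and 0.174 for Sall4. Sox2, counted whole, had 1.88 at day 2.5, above 78% of genes of like mean, and 0.239 at day 0.5, above 20%. Its day 2.5 value rests on few UMIs, with a mean of 0.227 per cell counted whole, near the 0.212 of Pou5f1. Utf1 had 2.01 and -0.16, and Pou5f1 -0.11 and 0.186, on few UMIs each. By this measure Lin28a was above 80.5% of like genes at day 2.5 and 79% at day 0.5, so its place among them differed little between the days, unlike in the thinned counts. Sall4 had Fano factors of 1.19 and 1.17. Those of Pou5f1, Sox2 and Utf1 lay between 0.9502 and 1.02, where thinned means of at most 0.164 UMIs per cell leave little room to see spread. Across cells, the 21 pairs of the 7 genes had Spearman correlations of -0.058 to 0.067 at day 2.5 and -0.053 to 0.048 at day 0.5, which in counts this sparse is no finding.

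**Figure D3:**
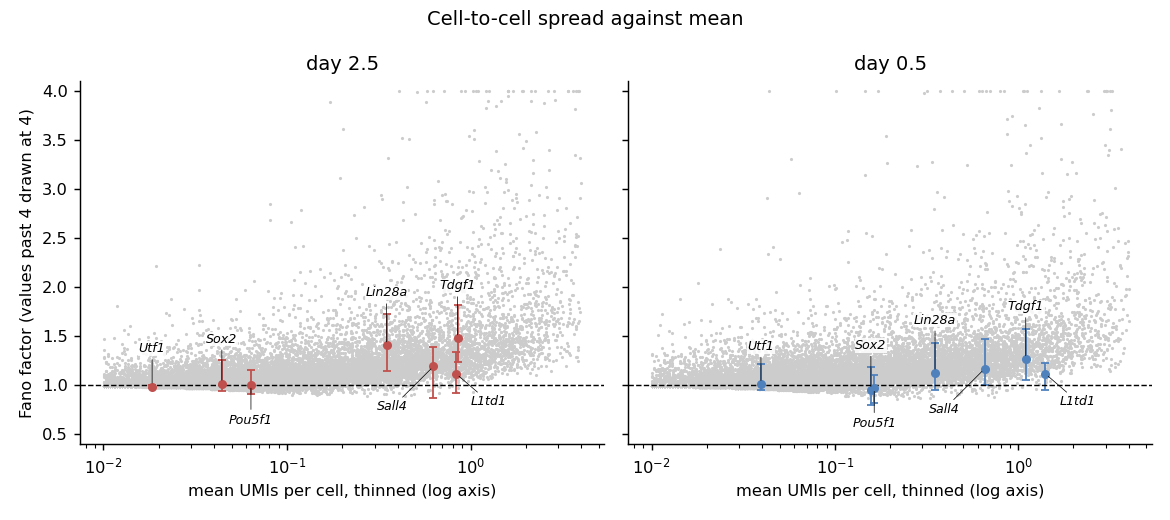
Fano factor (vertical axis) against mean UMIs per thinned cell (log horizontal axis) for all genes (grey) and the 7 genes (coloured, bars are the range over 20 thinning draws), at day 2.5 (left) and day 0.5 (right). L1td1 lies low among genes of like mean on both days, at 1.12, and Tdgf1 and Lin28a lie higher at day 2.5, at 1.48 and 1.41.

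The authors' cell cycle classes were filled unequally. G1 held 82 day 2.5 and 41 day 0.5 cells, Early-S 15 and 32, Mid-S 62 and 87, and Late-S 17 and 20. G2 held 18 and 6 and M held 7 and 15, and classes under 10 cells are given no level. L1td1 was lower at day 2.5 in all 4 classes with enough cells on both days. Its ratios were 0.630 in G1, 0.548 in Early-S, 0.527 in Mid-S and 0.521 in Late-S. In these classes 24%, 28.8%, 24.9% and 25.7% of tested genes were lower. Pou5f1 had ratios of 0.291 in G1 and 0.338 in Mid-S and Sox2 0.212 and 0.197, and in the other 2 classes both had under 20 UMIs.

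Sall4 and Lin28a kept ratios between 0.815 and 1.07 and between 0.589 and 1.40 over the 4 classes. Only Lin28a in Late-S passed the size for a call, on 14 day 2.5 and 30 day 0.5 UMIs and with an interval of 0.289 to 1.15. With the batches pooled, Sall4 was the one gene of the 7 whose level in G1 was above that in Mid-S on both days beyond the counting interval. It stood at 112.6 CPM in Mid-S and 148.9 CPM in G1 at day 2.5 (ratio 0.756, 0.594 to 0.960) and at 106.5 and 161.1 CPM at day 0.5 (0.661, 0.497 to 0.884). By batch the day 2.5 ratio was 0.734 (0.539 to 0.998) in batch 2 and 0.749 (0.496 to 1.12) in batch 3. The day 0.5 ratio was 0.754 (0.487 to 1.20) in batch 1 and 0.603 (0.406 to 0.898) in batch 2. Every ratio was below 1, but the intervals of batches 1 and 3 include 1. At day 0.5 the Sall4 level was 262 CPM in M, on 29 UMIs of 15 cells.

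Tdgf1 followed the cycle differently on the 2 days. At day 2.5 it stood at 154.9 CPM in Mid-S and 197.7 CPM in G1, a ratio of 0.784 (0.637 to 0.962). At day 0.5 it stood at 247 CPM in Mid-S and 152.04 CPM in G1, a ratio of 1.62 (1.26 to 2.12). Set by class, the day ratio was 0.628 (0.517 to 0.761) in Mid-S and 1.30 (0.998 to 1.71) in G1. The gene was thus lower at day 2.5 in Mid-S by the rule and not in G1.

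The batches moved with this result. The day 0.5 G1 cells of batch 1 held 18 Tdgf1 UMIs in 17 cells, or 85.4 CPM, and those of batch 2 held 57.5 UMIs in 24 cells, or 201.3 CPM. The Mid-S over G1 ratio at day 0.5 was accordingly 2.92 (1.79 to 5.05) in batch 1 and 1.21 (0.883 to 1.68) in batch 2. At day 2.5 it was 0.714 (0.547 to 0.932) in batch 2 and 0.875 (0.624 to 1.22) in batch 3. The ratio was below 1 in both day 2.5 batches and above 1 in both day 0.5 batches, and the part of the batches in its size was not tested. In batch 2, the only one with both days, the intervals of the 2 days overlap.

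Between Mid-S and G1, 2 of the 7 genes were called at day 0.5, Tdgf1 higher and Sall4 lower, and 0 at day 2.5. Of all tested genes, 13.7% were higher and 16.6% lower in Mid-S at day 0.5, and 12.1% and 18.8% at day 2.5. At day 2.5, 5 of the 7 genes had enough UMIs to be tested.

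**Figure D4:**
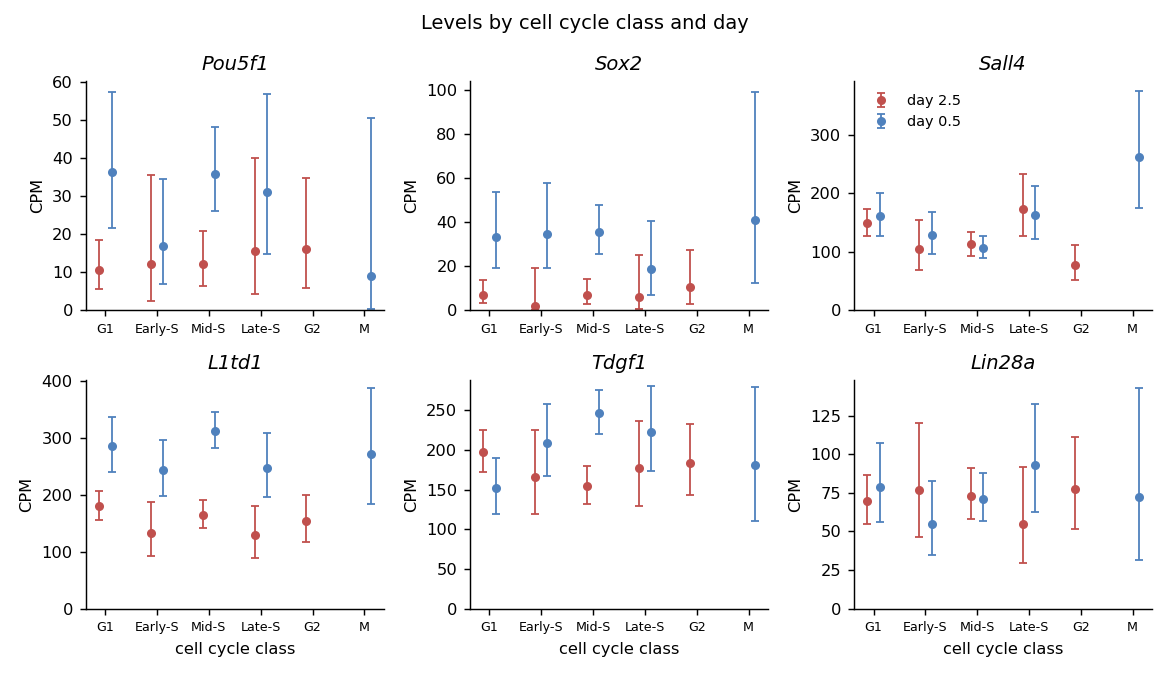
Level (CPM) of 6 of the genes in each cell cycle class with at least 10 cells, G1 to M, at day 2.5 (red, left) and day 0.5 (blue, right), with 95% Poisson intervals. L1td1 is lower at day 2.5 in every class shown on both days, and Tdgf1 has its lowest day 0.5 level, 152.04 CPM, in G1.

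At day 2.5 the authors' chrX allele table leaves out 83 cells and holds the other 59.5%, by a rule that the sources do not state. Xist, the RNA that coats the inactive X chromosome, stood at 83.1 CPM outside the table and 2490 CPM inside it. The 7 genes are all autosomal. L1td1 stood at 156.2 CPM outside and 165.99 CPM inside (ratio 0.941, 0.785 to 1.13), and Lin28a at 79.6 and 67.5 CPM (1.18, 0.902 to 1.54). Sox2 alone passed the size for a call, at 0.575 with an interval of 0.193 to 1.51 on 6.5 and 16 UMIs, where 7.38% of tested genes were lower and 8.67% higher. Against day 0.5, L1td1 had a ratio of 0.545 outside the table and 0.579 inside it, and Sall4 one of 0.989 outside and 0.923 inside.

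Relatives of the 7 genes did not share 1 direction within their families. Over all tested genes, 21.4% were higher, 25.6% lower and 53% neither, the shares to set beside each count of relatives below. In the SALL family, Sall4 had no call, Sall2 was higher at day 2.5, at 85.2 CPM against 14.3 CPM at day 0.5 (ratio 5.96), and Sall1 and Sall3 were lower. Sall1 stood at 87.6 CPM at day 2.5 and 198.8 CPM at day 0.5 (0.440), and Sall3 at 9.10 and 77.2 CPM (0.118). Lin28b, the paralog of Lin28a with the same action on let-7, stood at 542 CPM at day 2.5 and 207.8 CPM at day 0.5, a ratio of 2.61 (2.37 to 2.88). Within batch 2 the Lin28b ratio was 2.89 and that of Lin28a 1.12.

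Of 9 measured SOX genes, 4 were higher at day 2.5, 2 lower and 3 neither (21.4%, 25.6% and 53% of all tested genes). Sox6 (106.6 CPM at day 2.5 against 25.2 CPM at day 0.5), Sox4 (46.1 against 16.6), Sox11 (79.4 against 39.9) and Sox3 (7.22 against 2.26) were the higher ones, and Sox2 and Sox30 the lower ones. Sox30 had 13 and 16.5 UMIs and a ratio of 0.657, with an interval of 0.292 to 1.45 that includes 1. Sox3 belongs with Sox2 to the SOXB1 group, whose proteins bind the same DNA, and its day 0.5 level rests on 6 UMIs. Sox5, Sox12 and Sox13 had no call.

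Of the 7 POU genes described, 1 was higher, 3 were lower and 3 had no call (21.4%, 25.6% and 53% of all tested genes). Pou3f1 (Oct6), a factor of the formative state and of neural cells, was higher, at 9.89 CPM at day 2.5 against 1.51 CPM at day 0.5, where it had 4 UMIs. Pou2f1 (444 against 753 CPM), Pou4f1 (6.91 against 10.5 CPM) and Pou5f1 were lower. Pou4f1 had 22 and 28 UMIs and a ratio of 0.655, with an interval of 0.357 to 1.19 that includes 1. Pou2f2, Pou2f3 and Pou6f1 had no call.

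In the LIN28 and let-7 list, 1 of 14 measured genes was higher, 3 were lower and 10 were neither (21.4%, 25.6% and 53% of all tested genes). Its best counted genes were Igf2bp3 (756 CPM at day 2.5 against 538 CPM at day 0.5, no call), Trim71, a ubiquitin ligase and let-7 target (493 against 827 CPM, lower), and Tut4, which adds uridines to pre-let-7 (417 against 402 CPM, no call). Igf2bp2 and L1td1 were the other lower genes. In the CRIPTO and Nodal list, 3 of 10 were higher, 1 lower and 6 neither, and Smad2, Smad3 and Smad4, which carry the signal to the nucleus, had ratios of 0.738, 1.05 and 1.23. Nodal, the ligand that uses CRIPTO, stood at 44.9 CPM at day 2.5 and 23.3 CPM at day 0.5 (ratio 1.92). Within batch 2 Nodal stood at 37.7 CPM at day 2.5 and 26.4 CPM at day 0.5, which is under the 1.5-fold needed for a call. Furin, another of the higher genes, had 23 and 10.5 UMIs, with an interval of 0.846 to 4.22 that includes 1.

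**Figure D5:**
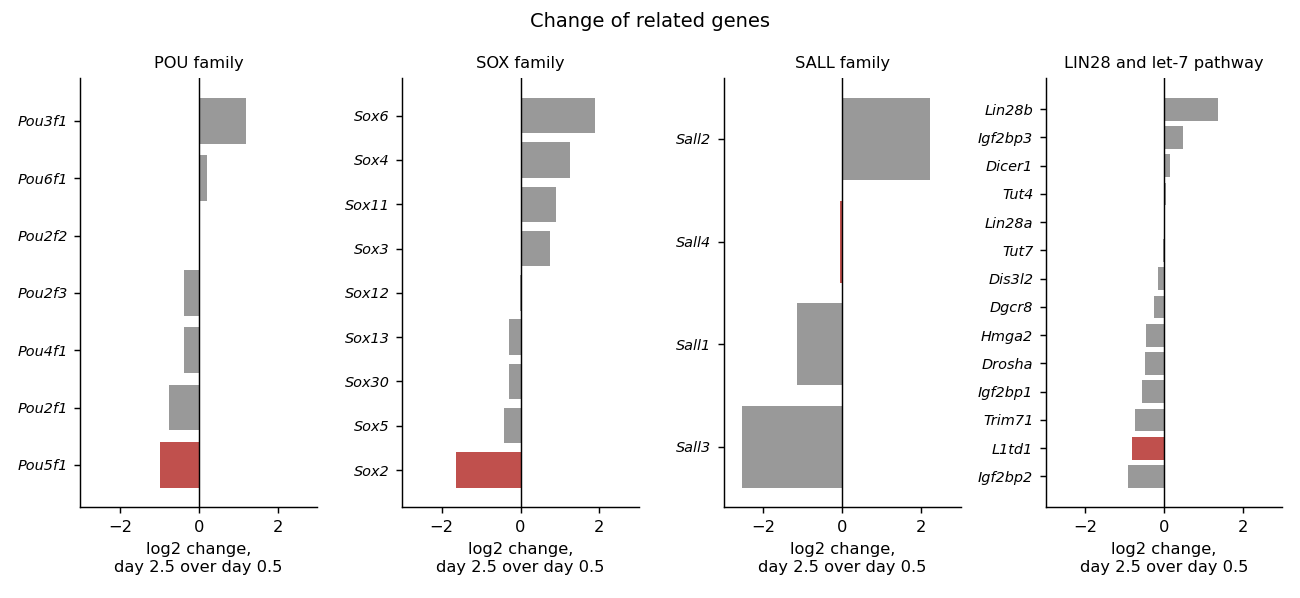
Log2 change of day 2.5 over day 0.5 (horizontal axis, 5 CPM added) of the POU genes described, the measured genes of the SOX and SALL families and those of the LIN28 and let-7 list, with members of the 7 genes in red. Sall2 (2.22) and Lin28b (1.36) stand opposite Sall3 (-2.54) and well above Sall4 and Lin28a, which lie near 0.

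Other genes of the pluripotency network were set beside the 7 genes. The naive, formative and partner lists were chosen with earlier results of these data known, as were the 7 genes. Counts and medians of these lists may partly reflect that choice and are no independent test. All 13 measured naive markers were lower at day 2.5, with a median log2 change of -3.05, far below the -0.61 of the 7 genes. Among them, Esrrb stood at 12.4 CPM at day 2.5 against 339 CPM at day 0.5, Zfp42 (Rex1) at 18.8 against 333 CPM, Tet2 at 30.1 against 437 CPM and Morc1 at 37.98 against 686 CPM. Nanog stood at 22.8 CPM at day 2.5 and 89.99 CPM at day 0.5 (ratio 0.253). Among 14 formative markers, 10 were higher, 2 were lower and 2 had no call (21.4%, 25.6% and 53% of all tested genes). Their median log2 change was 1.22. The best counted, Tcf7l1, had no call, at 1227 CPM at day 2.5 and 1158 CPM at day 0.5. Dnmt3b stood at 1350.1 and 544 CPM and Foxp1 at 598 and 180.3 CPM, while Lef1 was lower, at 712 and 1409 CPM. Fgf5 stood at 120.7 CPM at day 2.5 and 3.01 CPM at day 0.5.

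Among 23 measured partners of the 7 genes in the network, 16 were lower, 7 had no call and 0 were higher (25.6%, 53% and 21.4% of all tested genes). Their median log2 change was -0.90. The best counted were Jarid2, a subunit of Polycomb complex PRC2 (1215 CPM at day 2.5 against 4154 CPM at day 0.5), Rif1 (747 against 1477 CPM), the corepressor Ctbp2 (527 against 989 CPM) and Mga (366 against 579.8 CPM), all lower. Nanog, Nr0b1 and Fgf4 stand in both the naive and the partner list, and Pou3f1, Sox3, Sox4 and Lin28b in the formative list as well as in their own. The summed level of the partners was 4281 CPM at day 2.5 and 9642 CPM at day 0.5.

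The genes whose levels followed each of the 7 most closely were ranked by Pearson's correlation of log2 levels over the 13 groups of day, batch and cell cycle class with at least 10 cells. These groups share depth and the difference between the days. They were Atrn (0.873) and Scmh1 (0.866) for Pou5f1, Hsf2bp, Gm11508 and Fubp3 for Sox2 (0.972 to 0.973), Rbm27, Smc3 and Ago2 for Sall4 (0.858 to 0.937) and Pecam1, Sall1 and Tns3 for L1td1 (0.926 to 0.936). They were Fhod3, Trmt11 and Mnat1 for Tdgf1 (0.710 to 0.906), Itgb1, Gm26542 and Ncoa6 for Lin28a (0.717 to 0.759) and Qk, Syncrip and Gm26992 for Utf1 (0.864 to 0.904). With only the 8 groups of at least 20 cells, none of these genes was found again, so the ranking is not stable.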

How the data were processed

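HiRES RNA of single mouse embryonic stem cells was read from the authors' deposited table of expected counts of UMIs per gene and cell, in which 11.1% of values above 0 are fractions, per the file values. The authors' deposited cell tables gave the day, the batch, the cell cycle class and counts of exon UMIs. Exon UMIs were 24.2% of gene UMIs at day 2.5 and 26.3% at day 0.5. Unspliced RNA therefore weighs on the levels of long genes. Where shares or summed levels of different genes stand side by side, they rank no gene above another. Per the submitters' processing notes, the build is GRCm38. Neither the aligner and counter nor the use of strand is given in the sources used here. Of 471 cells named in the sample titles, 406 were in the expression table; 1101 columns of no sample here were not used. Doublets were not called.

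Counts were summed over the cells of a day and given as CPM, with exact 95% Poisson intervals, exact conditional intervals of ratios and Clopper-Pearson intervals of shares. Fractional counts entered the sums unchanged, and thinning rounded them up or down at random. Results were recomputed within batch 2, by letter of the cell name, with other thresholds, scalings and thinning depths, and, chosen after seeing the data, in single cell cycle classes, in cells of at least 5000 UMIs and with Sox2 counted whole. Nanog, Nr0b1, Fgf4, Fgf5, Nodal, Furin, Sox2ot and Igf2bp2 were named after their values were seen. The other named genes follow a rule: the 7 genes, Lin28b and the measured POU, SOX and SALL genes. The rule also names up to 4 best counted genes of each related list and the 3 most alike genes of each of the 7. Of the genes this rule names, 2 are not reported here. The 7 genes and the lists were chosen with earlier results of these data known. Of the table's gene names, 75.8% matched the RefSeq table, which gave positions and sequences. Python 3.11.15, numpy 2.4.6, pandas 2.3.3, scipy 1.17.1 and matplotlib 3.10.9 were used, and the scripts were tested on simulated data.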

Additional observations from a re-analysis of the deposited data

Results flagged for a closer look

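The Tdgf1 ratio of Mid-S over G1 was 0.784 at day 2.5, below 1 in batches 2 and 3, and 1.62 at day 0.5, above 1 in batches 1 and 2. It is listed because each day's batches lay on opposite sides of 1. The counting intervals of the pooled days lay apart, but within batch 2, the only batch with both days, they overlap, at 0.547 to 0.932 at day 2.5 and 0.883 to 1.68 at day 0.5. The day 0.5 ratio was 2.92 in batch 1, where G1 held 18 UMIs in 17 cells. The difference between the days was not tested, since each day is 1 sample.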

How the results depend on the processing

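No paired analysis was possible because each day is 1 sample and the labels give no replicate numbers. Of the 7 genes, 4 were lower at day 2.5, and this count was 2 among cells of letter B. There Pou5f1, Sox2 and Utf1 had too few UMIs for a call. The 2 were L1td1 and Tdgf1, which is not one of the 4. The 3 lower shares of cells became 1 without thinning, 1 where at least 2 UMIs were asked for and 1 within batch 2. The 2 calls between Mid-S and G1 at day 0.5 became 1 within batch 2. The single call across the chrX allele table became 0 within batch 2, 0 in thinned cells and 2 without M cells. The median of the SOX list (-0.01 in all cells) turned to 0.21 within batch 2 and 0.022 under median-ratio scaling, and that of the mesendoderm list, which rests on 1 measured gene, to 0.20 within batch 2. That scaling shifted the all-gene median by 0.034. Of 13 alternatives, adding 1 CPM and counting Sox2 whole cannot alter the ratios that follow. Over all 13, the ratio of L1td1 stayed between 0.527 and 0.630, that of Sall4 between 0.924 and 1.11 and that of Lin28a between 0.687 and 1.12. That of Tdgf1 ran from 0.566 in letter B to 1.30 in G1 cells, with 2 calls of lower. Batch 2 is the only one that holds both days, and the depth limits Utf1, Sox2 and Pou5f1 most.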

Other observations

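Lists of markers of other cell types each summed to at most 44.9 CPM on either day. The fibroblast list summed to 4.08 CPM at day 2.5 and 6.40 CPM at day 0.5, the trophectoderm list to 11.3 and 14.5 CPM, the mesendoderm list to 3.77 and 6.02 CPM and the neuroectoderm list to 6.75 and 9.41 CPM. The two-cell-like list, genes of a rare state of embryonic stem cells, summed to 0.628 CPM at day 2.5 and 0.753 CPM at day 0.5, with 5 of 6 genes at 0 on both days. The primitive endoderm list summed to 44.9 and 25.4 CPM, and 1 of its 2 measured genes was higher: Dab2, an endocytic adaptor also found in other cells, at 26.99 CPM at day 2.5 and 8.66 CPM at day 0.5. Gata4, the other measured gene, had no call, at 13.5 CPM (43 UMIs) at day 2.5 and 12.8 CPM (34 UMIs) at day 0.5. In that list, Foxa2 and Sox7 were at 0 UMIs on both days.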
